A study of Mus musculus with 12 samples.

Results

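The Hox genes were followed along the gut axis in mouse small intestine (SI) and large intestine (LI) epithelium. Members were all genes whose mouse symbol consists of Hoxa, Hoxb, Hoxc or Hoxd and a number, which gave 39 of the 55487 genes in the count table, with 11 in the Hoxa, 10 in the Hoxb, 9 in the Hoxc and 9 in the Hoxd cluster. The 12 RNA-seq libraries came from C57BL/6 mice and formed 4 groups of 3. SI crypts and LI crypts were freshly isolated tissue, and SI monolayers and LI monolayers were crypt-derived epithelial sheets grown for 24 h in control medium without a drug. The study took SI crypts for monolayers from the jejunum of mice aged 6 to 10 weeks by EDTA release, and LI crypts from the same mice after mincing and enzyme digestion, so region and isolation method cannot be told apart where the crypt libraries were isolated in the same way. Both sexes were used. Monolayers grew on Matrigel, first in a seeding medium with CHIR-99021, EGF, LDN-193189, R-spondin-1, Wnt3a and Y-27632, and from 4 h in medium with Wnt3a, EGF, Noggin and R-spondin-1. The study's legend gives 3 mice for the crypt libraries and 3 sets of pooled wells for the monolayers, and the labels do not tie libraries to animals, so p-values measure the spread between these samples.

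Hox genes encode transcription factors that bind DNA through a homeodomain and give cells a position along the head-to-tail axis. The genes of a cluster lie in an order that follows where they are used, with low paralogue numbers (the number in the symbol) towards the head and high numbers towards the tail. In the gut, paralogues with high numbers are known for the hindgut, which gives rise to much of the large intestine, and several anterior genes act in foregut and midgut organs. The pattern can persist in adult cells through Polycomb and trithorax group proteins, which maintain silent and active chromatin. Cofactors of the TALE class (Pbx, Meis and Pknox proteins) bind DNA together with Hox proteins.

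On GRCm38, the Hoxa cluster spanned chr6:52155590-52260880, the Hoxb cluster chr11:96194316-96368256, the Hoxc cluster chr15:102921103-103036852 and the Hoxd cluster chr2:74668310-74765142. The results turn on the paralogues numbered 13, which stand at the posterior end of each cluster. Their homeoboxes, the 180 bases that encode the homeodomain, are shown because the Hoxa, Hoxb and Hoxd copies were among the most abundant Hox transcripts in LI while the Hoxc copy was near 0. Each lay in exon 2 of 2 of a coding transcript. Capitals mark codons 48 to 53, in the recognition helix that contacts the DNA.
Hoxa13 (chr6:52258928-52259107, minus strand): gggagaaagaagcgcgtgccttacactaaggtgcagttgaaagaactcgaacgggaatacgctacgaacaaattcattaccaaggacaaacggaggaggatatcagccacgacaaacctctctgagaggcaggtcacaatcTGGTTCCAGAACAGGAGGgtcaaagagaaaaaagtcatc
Hoxb13 (chr11:96196020-96196199, plus strand): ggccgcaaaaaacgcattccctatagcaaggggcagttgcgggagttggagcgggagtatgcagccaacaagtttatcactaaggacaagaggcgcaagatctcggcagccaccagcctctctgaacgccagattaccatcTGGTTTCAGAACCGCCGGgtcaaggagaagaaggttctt
Hoxc13 (chr15:102927210-102927389, plus strand): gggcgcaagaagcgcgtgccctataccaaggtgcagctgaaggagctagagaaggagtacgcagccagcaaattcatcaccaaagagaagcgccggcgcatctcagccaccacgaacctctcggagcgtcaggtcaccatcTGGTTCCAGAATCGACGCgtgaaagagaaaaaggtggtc
Hoxd13 (chr2:74669930-74670109, plus strand): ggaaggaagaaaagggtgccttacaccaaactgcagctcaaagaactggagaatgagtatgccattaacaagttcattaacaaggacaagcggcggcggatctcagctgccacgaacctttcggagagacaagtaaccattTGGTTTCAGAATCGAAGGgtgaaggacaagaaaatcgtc

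Identity between these homeoboxes ranged from 67.2% for Hoxb13 and Hoxd13 to 77.2% for Hoxa13 and Hoxc13. Over all 39 members, the 42 pairs with the same paralogue number had a median identity of 80.6%, and the 699 pairs with different numbers had a median of 60.6%. The similarity bears on counting, since reads inside a long shared run could belong to either gene. Exact runs of at least 30 bases were shared by the transcripts of 22 pairs of members, and the longest, between Hoxa6 and Hoxb4, was 52 bases. No pair of paralogues numbered 13 shared such a run. Exon bases were also shared by 16 members with another annotated gene, over 50% of the exon length for Hoxb3, Hoxd3 and Hoxd4, and strand was not stated for the counting, so values of these 3 genes are uncertain.

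Promoter windows (250 bases before to 50 after the gene start, RefSeq, GRCm38.p6) were found for 22 of the 39 members. Those of Hoxd13 and Hoxa13, abundant in LI, and of Hoxd1, which had no count in any library, are shown. Capitals mark TTTATA or TTTATG on either strand, letters that caudal-type homeodomain proteins such as Cdx2 are known to bind.
Hoxd13 (chr2:74667975-74668274, plus strand): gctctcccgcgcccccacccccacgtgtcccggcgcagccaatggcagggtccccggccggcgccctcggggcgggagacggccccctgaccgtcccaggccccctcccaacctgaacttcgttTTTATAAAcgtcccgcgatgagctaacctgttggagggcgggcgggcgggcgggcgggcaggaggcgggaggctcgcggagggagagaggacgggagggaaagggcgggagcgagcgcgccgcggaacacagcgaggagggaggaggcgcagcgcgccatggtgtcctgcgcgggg
Hoxa13 (chr6:52260831-52261130, minus strand): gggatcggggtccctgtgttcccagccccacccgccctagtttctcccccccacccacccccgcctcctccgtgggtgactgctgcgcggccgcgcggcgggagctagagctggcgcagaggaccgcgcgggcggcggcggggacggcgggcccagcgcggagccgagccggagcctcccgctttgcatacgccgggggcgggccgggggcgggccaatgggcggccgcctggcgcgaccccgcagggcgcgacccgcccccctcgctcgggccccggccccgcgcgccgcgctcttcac
Hoxd1 (chr2:74762730-74763029, plus strand): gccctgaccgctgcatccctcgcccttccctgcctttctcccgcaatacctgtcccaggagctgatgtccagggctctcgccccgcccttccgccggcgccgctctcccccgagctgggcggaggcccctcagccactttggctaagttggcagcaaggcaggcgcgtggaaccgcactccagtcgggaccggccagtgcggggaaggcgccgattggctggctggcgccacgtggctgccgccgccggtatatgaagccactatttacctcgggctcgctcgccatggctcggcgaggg

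Of the 22 windows, 6 (27.3%) held TTTATA or TTTATG, against 23.6% of 27025 promoter windows of all gene symbols, a share near that of any promoter. In the Hoxd13 window the match to TTTATA overlapped the same letters on the other strand, and no match was found in the windows of Hoxa13 and Hoxd1. The number of CG dinucleotides was 37 in the Hoxd13 window, 45 in that of Hoxa13 and 29 in that of Hoxd1. The median was 13.5 over the 22 members and 7 over all windows. Among the 22 members, only the windows of Hoxa13 and Hoxd13 held more than that of Hoxd1.

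Total counts per library ranged from 59016196 to 76216530 (median 69256790), so that 3 counts, taken as the limit that a count of 0 allows, corresponded to 0.0391 to 0.0525 CPM. CPM is the usual count per unit of library size, with library sizes scaled by the TMM method. Such limits cover counting error only. Summed levels of 8 epithelial markers were 13070 to 14270 CPM in SI crypts, 27250 to 28050 in SI monolayers, 22110 to 22490 in LI crypts and 35460 to 36590 in LI monolayers. LI crypt replicate 2 stood apart from the other LI crypt libraries. The carbonic anhydrase gene Car1, 1 of 5 LI epithelial markers, reached 3122 CPM there against 755 and 709, while the other 4 markers summed to 820 CPM against 928 and 995.5. LI crypt replicate 1 had 43.4 CPM over 6 smooth muscle markers, against 5.14 and 3.50 in the other LI crypt libraries.

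The difference in replicate 2 reached the Hox genes. Hoxb3 to Hoxb8, an unbroken stretch of the Hoxb cluster, were all highest in replicate 2, at 2.80 times (Hoxb4) to 4.21 times (Hoxb3) the mean of replicates 1 and 3. Hoxb6, for example, was at 4.39, 18.2 and 4.70 CPM. Most members numbered 11 to 13 went the other way: Hoxb13, Hoxa13, Hoxd11, Hoxd12 and Hoxd13 were all lowest in replicate 2, at 0.712, 0.762, 0.322, 0.702 and 0.435 times that mean. In contrast, Hoxa2, Hoxa3, Hoxa5, Hoxa7, Hoxa9 and Hoxa11 lay within 0.969 to 1.06 times it. Hoxa6 and Hoxa10 were also lowest in replicate 2, at 0.7945 and 0.8552 times that mean. Some members with few counts were highest there too: Hoxa4 (19, 66 and 35 counts), Hoxd4 (9, 23 and 15) and Hoxd8 (36, 88 and 32). Hoxd9 (46, 24 and 28) and Hoxd10 (101, 54 and 68) were lowest there. Hoxd13, which is known for its role in digits and the anorectal region, was at 39.55, 19.75 and 51.3 CPM. Of the LI markers, Car1 was highest in replicate 2, as Hoxb3 to Hoxb8 were, and so was Ly6g6c, at 109, 155 and 71 counts. The sum of the 4 LI markers without Car1 was lowest there. The part of these markers in the differences was not tested. Where leaving out replicate 2 changed the call of a member named here, this is said beside its value.

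**Figure D1:**
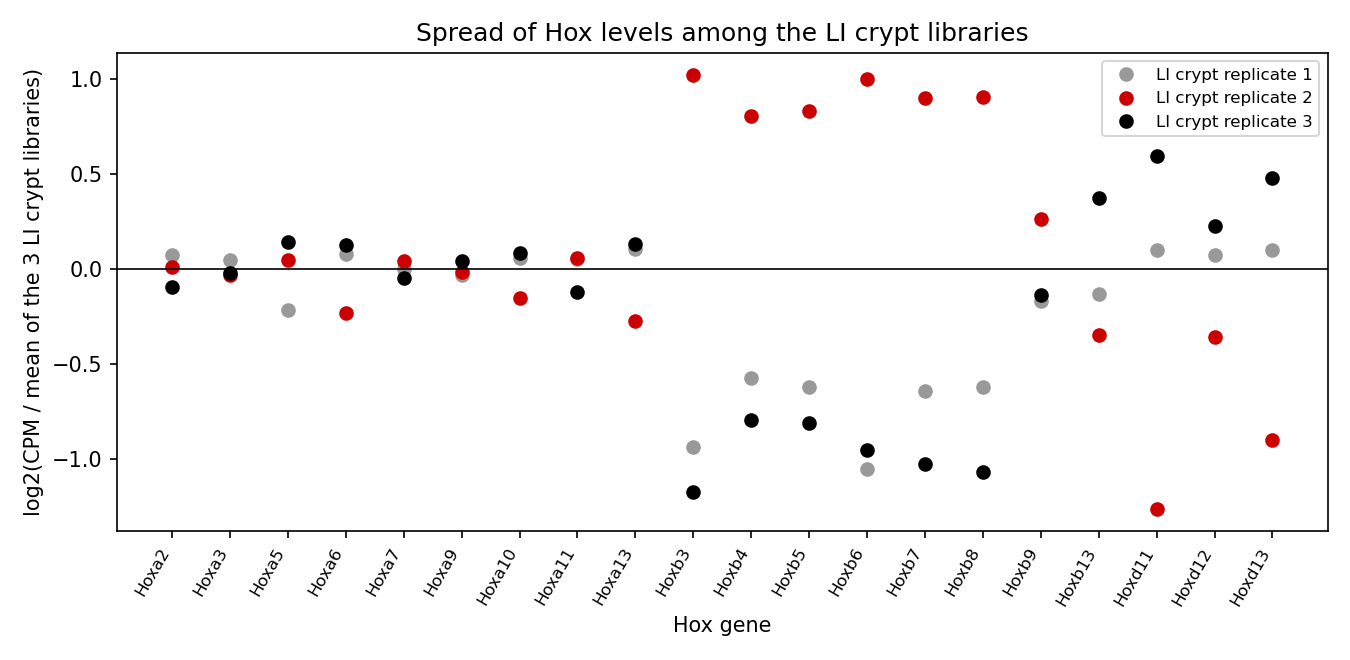
CPM of each Hox gene in each LI crypt library over the mean of the 3 libraries, on a log2 axis, for the 20 members with a mean of at least 1 CPM in LI crypts. Replicate 2 lies above the others for Hoxb3 to Hoxb9 and below them for Hoxa13, Hoxb13, Hoxd11, Hoxd12 and Hoxd13, while most Hoxa genes lie close to 0.

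Hox genes were far more abundant in LI than in SI, in crypts and in monolayers, and posterior members made up most of the LI signal. The summed level of all 39 members, in CPM per kb of exon so that genes can be compared, was 4.10, 4.17 and 3.76 in SI crypts and 4.25, 4.99 and 3.95 in SI monolayers. It was 273, 254.5 and 341 in LI crypts and 96.2, 96.6 and 92.8 in LI monolayers. The LI libraries thus all lay above the SI libraries, and LI crypts above LI monolayers. Paralogues 9 to 13 held 86.2% ± 4.82 (SD, n = 3) of the sum in LI crypts and 76.4% ± 0.451 in LI monolayers, against 29.2% ± 3.78 in SI crypts and 32.6% ± 5.77 in SI monolayers. In bulk samples, fewer cells of a type and less RNA per cell cannot be told apart.

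**Figure D2:**
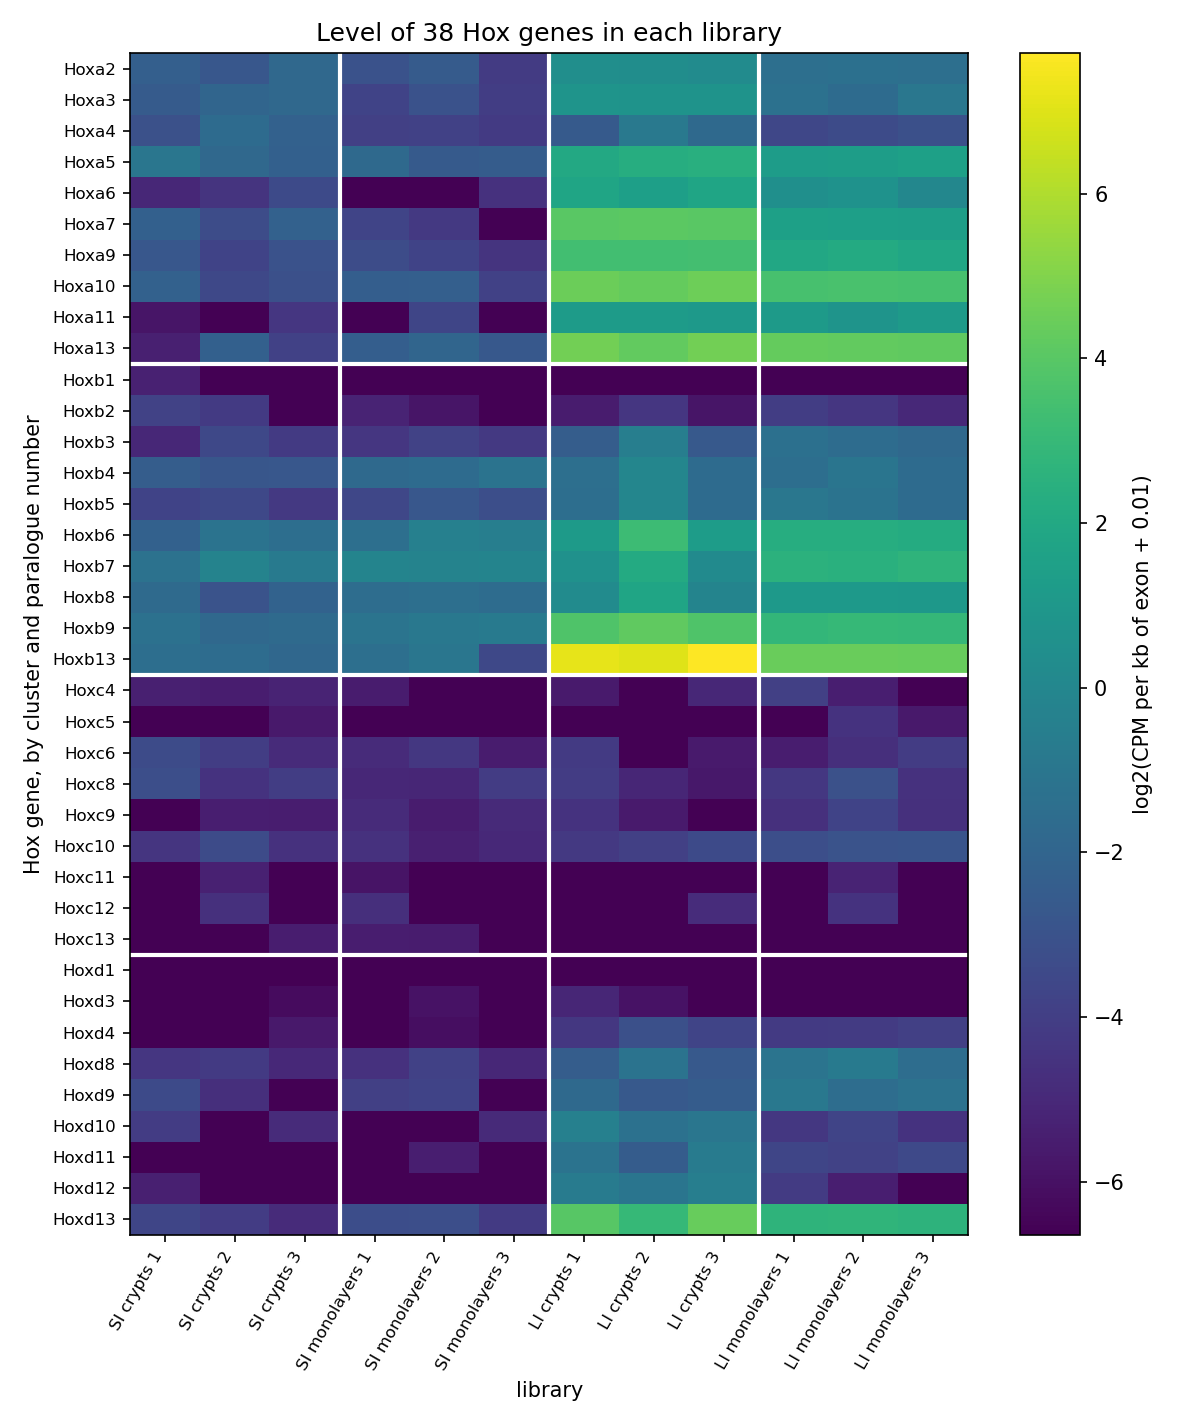
Level of 38 of the Hox genes (rows, by cluster and paralogue number) in the 12 libraries (columns), as log2 of CPM per kb of exon plus 0.01. The lower rows of the Hoxa, Hoxb and Hoxd blocks are bright in the LI columns, with Hoxb13 brightest in LI crypts, and the Hoxc block is dark in every library.

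The order of genes differed between regions. In LI crypts Hoxb13 led at 161 ± 42.9 CPM per kb (SD, n = 3), 55.7% of the Hox sum, and its lowest library lay above the highest of the next gene. Hoxa13 (23.1 ± 3.45) and Hoxa10 (21.95 ± 1.94) followed with overlapping ranges, then Hoxa7 (16.6 ± 0.526), Hoxb9 (15.1 ± 2.62) and Hoxd13 (14.85 ± 6.43), whose ranges also overlapped. In LI monolayers the lead of Hoxb13 was small, at 21.1 ± 0.611 CPM per kb against 19.2 ± 0.880 for Hoxa13, with ranges that did not overlap. Hoxa10 (11.7 ± 0.184), Hoxb9 (7.60 ± 0.344) and Hoxd13 (6.38 ± 0.245) came next, each apart from the gene above. In SI, by contrast, middle genes of the Hoxb cluster led: Hoxb7 was at 0.605 ± 0.218 CPM per kb in crypts and 0.869 ± 0.01555 in monolayers, followed by Hoxb6 and Hoxb9. The ranges of all neighbours among the 10 leading genes of SI crypts overlapped, so their order is not resolved.

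By cluster, Hoxb held 64.3% of the LI crypt sum and Hoxa 29.96%, and in LI monolayers Hoxa and Hoxb were near equal at 47.01% and 44.9%. The Hoxd cluster held 5.73% and 7.81%. The Hoxc cluster held 0.0474% in LI crypts and 0.312% in LI monolayers, and 5.25% in SI crypts, where its summed level was 0.212 CPM per kb, against 0.137 in LI crypts. A mean of at least 1 CPM was reached by 1 member in SI crypts (Hoxa3), 3 in SI monolayers (Hoxb6, Hoxb7 and Hoxb9), 20 in LI crypts and 17 in LI monolayers.

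The regions were compared first in fresh crypts. Of the 29 members with enough counts to be tested, 24 were higher in LI crypts and 0 lower (0 also at an unadjusted p below 0.05 and by DESeq2), at an adjusted p below 0.05 and a change of at least 2-fold (edgeR quasi-likelihood test, Benjamini-Hochberg over 19581 genes). Over all genes tested, 11.1% were higher and 11.6% lower by the same rule. Members that passed the count filter only through their LI level had to differ, so the count describes these 29 and not the whole family. Their median log2 fold change was 3.80, against -0.06 over all genes tested. In 24 of the 29 every LI crypt library lay above every SI crypt library, as in 26.9% of all genes, and in 0 the reverse, as in 31.7%. All 24 calls were also made without LI crypt replicate 2.

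The paralogues numbered 13 differed most among the well-counted members. Hoxb13 (ENSMUSG00000049604.3), known for its role in the tail bud and prostate, was at 0.770, 0.710 and 0.586 CPM in SI crypts and at 325, 280 and 462 CPM in LI crypts. The log2 fold change was 9.02 (SE 0.42, adjusted p = 1.48e-07), and the SI mean was 0.194% of the LI mean. Hoxa13 (ENSMUSG00000038203.18), which acts in the hindgut, limb and genital tubercle, was at 0.0350, 0.494 and 0.146 CPM in SI crypts. In LI crypts Hoxa13 was at 61.6, 47.3 and 62.6 CPM, a log2 fold change of 7.94 (SE 0.36, adjusted p = 3.93e-08). Hoxd13 (ENSMUSG00000001819.4) was at 0.175, 0.123 and 0.0586 CPM in SI crypts, against the LI values of 19.75 to 51.3 given above, a log2 fold change of 8.29 (SE 0.50, adjusted p = 3.75e-07). For all 3 genes the groups were far apart, with less than 0.5 CPM in the SI libraries except for Hoxb13.

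Hoxa9, Hoxa10, Hoxa11 and Hoxb9 followed. Hoxa10, known for its role in the uterus, was at 0.700, 0.247 and 0.337 CPM in SI crypts and 74.6, 64.5 and 76.2 CPM in LI crypts (log2 fold change 7.42, SE 0.30, adjusted p = 7.89e-09). Hoxa9, which also acts in blood-forming cells, was at 0.787, 0.355 and 0.630 CPM against 57.3, 58.0 and 60.2 CPM (6.64, SE 0.21, adjusted p = 4.13e-11). Hoxb9 was at 1.01, 0.710 and 0.791 CPM against 34.5, 46.6 and 35.3 CPM (5.54, SE 0.16, adjusted p = 1.69e-13). The LI values of these genes differed little between replicates beside the gap to SI. Hoxa11, which acts in kidney and uterus, was at 5.40, 5.41 and 4.79 CPM in LI crypts and had only 7 counts in the SI crypt libraries together (7.08, SE 0.70, adjusted p = 3.97e-06).

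Hoxd10, Hoxd11 and Hoxd12, which lie next to Hoxd13, were low even in LI. Hoxd10 had 101, 54 and 68 counts in the LI crypt libraries and 5, 0 and 3 in the SI crypt libraries (log2 fold change 4.48, SE 0.75, adjusted p = 9.87e-05). Hoxd11 had 137, 54 and 199 counts in LI crypts and 0 in every SI crypt library, at least 36.1-fold higher in LI with 3 counts per library as the limit. Most low counts were even, as they would be if both mates of a pair had been counted, and with 6 counts as the limit the bound was 18.1-fold. Hoxd12 had 117, 88 and 134 counts in LI crypts and 2 counts in the SI crypt libraries together, a ratio of 142.5 with a 95% counting interval from 39.1 to 1181, or from 25.3 to 5678 if both mates were counted. These 3 genes, known for limb patterning, were thus present in LI crypts at 0.716 to 2.60 CPM, with 0 to 5 counts in each SI crypt library.

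Paralogues 4 to 8 formed a graded series within the Hoxa cluster. Hoxa7 was at 0.577, 0.262 and 0.600 CPM in SI crypts and 47.9, 49.3 and 46.3 CPM in LI crypts (log2 fold change 6.64, SE 0.29, adjusted p = 3.34e-09). Hoxa6 was at 0.0175, 0.0308 and 0.0732 CPM against 2.97, 2.40 and 3.07 CPM (6.01, SE 0.46, adjusted p = 1.59e-08). Hoxa5, needed for lung and gut development, was at 0.927, 0.524 and 0.381 CPM against 7.67, 9.21 and 9.82 CPM (3.88, SE 0.27, adjusted p = 4.76e-09). Hoxa4 was at 0.175, 0.509 and 0.337 CPM against 0.256, 0.875 and 0.457 CPM, groups that overlapped (0.63, SE 0.50, adjusted p = 0.316).

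The Hoxb members 3 to 8 differed less, and their LI levels were carried in part by replicate 2. Hoxb6 was at 0.420, 0.833 and 0.688 CPM in SI crypts, and its log2 fold change was 3.80 (SE 0.64, adjusted p = 0.000797) with replicate 2 and 2.80 (adjusted p = 3.04e-07) without it. Hoxb7 was at 0.630, 1.30 and 0.879 CPM in SI crypts and 2.31, 6.76 and 1.77 CPM in LI crypts (1.94, SE 0.47, adjusted p = 0.00534, and 1.12 without replicate 2). Hoxb8, a gene of myeloid cells and the posterior axis, was at 0.805, 0.308 and 0.571 CPM against 3.18, 9.13 and 2.32 CPM (3.13, SE 0.51, adjusted p = 0.000369, and 2.30 without replicate 2). Hoxb4, known from blood stem cells, was at 0.455, 0.339 and 0.351 CPM against 0.942, 2.45 and 0.809 CPM (1.88, SE 0.40, adjusted p = 0.000873, and 1.20 without replicate 2). Hoxb5, which acts in enteric neuron precursors, was at 0.175, 0.216 and 0.117 CPM against 0.982, 2.69 and 0.861 CPM (3.15, SE 0.48, adjusted p = 3.44e-05, and 2.44 without replicate 2). All these genes kept non-overlapping groups.

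Anterior members also differed between regions where they had counts. Hoxa3, which is needed for the thymus and parathyroid, was at 0.997, 1.48 and 1.67 CPM in SI crypts and 10.5, 9.89 and 9.95 CPM in LI crypts (log2 fold change 2.86, SE 0.24, adjusted p = 5.86e-08). Hoxa2, which patterns the branchial arches, was at 0.350, 0.247 and 0.498 CPM against 2.41, 2.31 and 2.14 CPM (2.64, SE 0.34, adjusted p = 6.56e-06). Hoxb3 was at 0.0875, 0.324 and 0.190 CPM against 0.754, 2.93 and 0.639 CPM (2.82, SE 0.59, adjusted p = 0.000954, and 1.77 without replicate 2). Hoxb2 was not called, with a log2 fold change of -0.83 (SE 0.99). Hoxd4 had 47 counts in the LI crypt libraries together and 2 in the SI crypt libraries, a ratio of 19.8 with a counting interval from 5.17 to 168 (3.29 to 829.5 if both mates were counted), and Hoxd8 and Hoxd9 were also called, with log2 fold changes of 2.84 (SE 0.52) and 2.49 (SE 0.82), the call of Hoxd9 being lost without SI crypt replicate 2 or LI crypt replicate 1.

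Across the 29 tested members, the log2 fold change between regions had a Pearson correlation with paralogue number of 0.68 and a Spearman correlation of 0.68 in crypts, and 0.59 and 0.57 in monolayers. These include members tested only because of their LI level. Without the 6 that had fewer than 10 counts over the SI crypt libraries, the values were 0.66 and 0.57 over 23 members in crypts, and without the 7 such members in monolayers they were 0.74 and 0.735 over 22. The members share libraries and clusters and are not independent, and no test was made. In crypts, the median log2 fold change was 2.64 for paralogues 1 to 3 (5 tested of 8), 3.14 for 4 to 8 (12 of 15) and 6.997 for 9 to 13 (12 of 16), or 6.78 for the last with Hoxd11 set to its bound. By cluster it was 6.01 in Hoxa, 3.13 in Hoxb and 4.48 in Hoxd. The 2 tested Hoxc genes were not called, at -1.25 (SE 0.76) for Hoxc8 and 0.20 for Hoxc10.

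**Figure D3:**
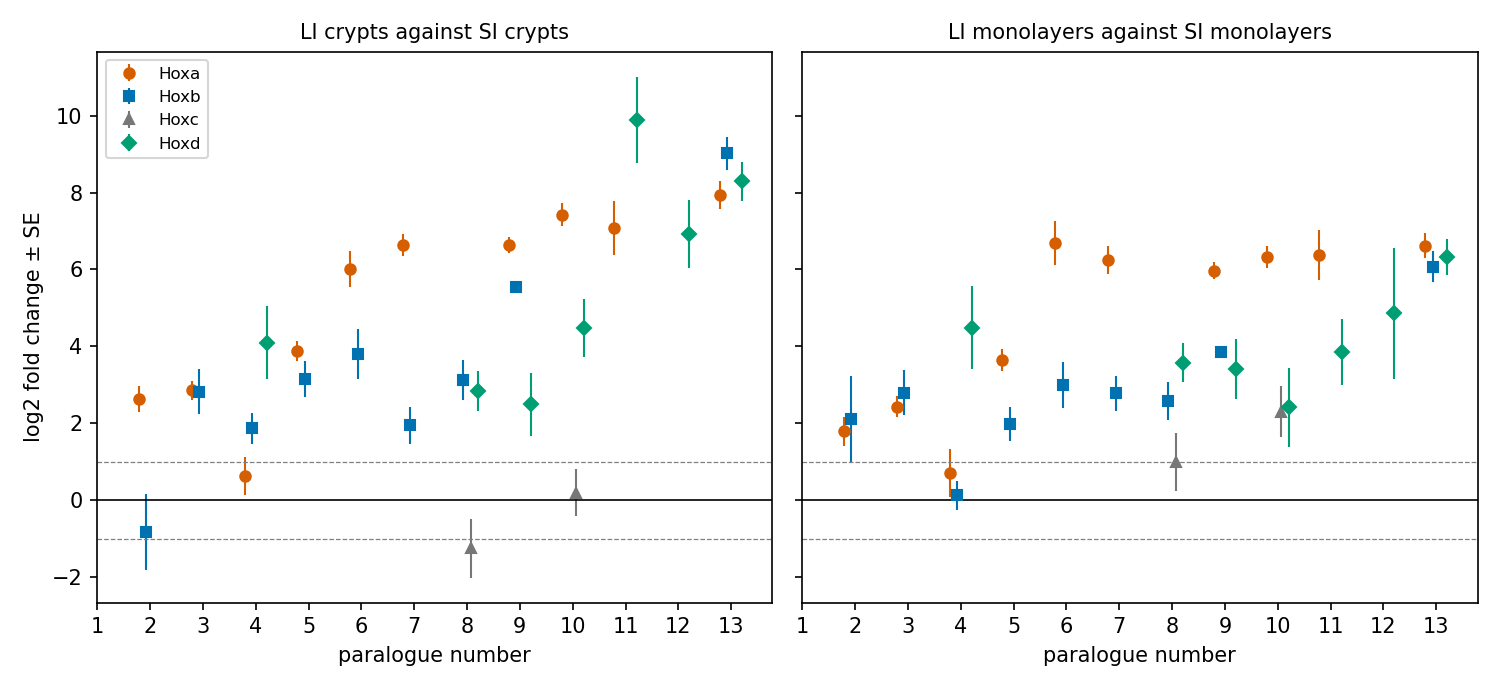
Log2 fold change (LI over SI, bars: SE) of 28 of the tested members against paralogue number, in crypts (left) and monolayers (right), coloured by cluster, with dashed lines at a log2 fold change of 1 and -1. Values rise from left to right, Hoxb13, Hoxa13 and Hoxd13 reach 9.02, 7.94 and 8.29 in crypts, and the point of Hoxd11 in crypts, where SI had no count, depends on the prior count of the fit and is no measured fold.

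The Hoxc cluster and a few other members had next to no counts. Hoxd1 had 0 counts in all 12 libraries. Hoxb1 had 2 counts in 1 library, and Hoxc11, Hoxc12 and Hoxc13 had at most 2 counts in any library. Hoxc4, Hoxc5, Hoxc6, Hoxc9 and Hoxd3 had at most 10, 6, 12, 9 and 6 counts. Hoxc6 was at 0 in only 1 library, and Hoxc11, Hoxc13 and Hoxc5 in 9 each. These 10 members had too few counts to be tested. Hoxc8 and Hoxc10, the tested members of the cluster, had 2 to 18 and 2 to 16 counts per library. Hoxc10 was called higher in LI monolayers (13, 13 and 16 counts) than in SI monolayers (4, 2 and 3 counts), with a log2 fold change of 2.30 (SE 0.66, adjusted p = 0.00752). The call of Hoxc10 was lost with halved counts. In crypts its values overlapped (0.20, SE 0.62, adjusted p = 0.816).

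In monolayers, which had spent 24 h outside the animal, the difference between regions was also present. The summed Hox level was 21.7 times as high in LI as in SI, against 72.15 times in crypts. Again 24 of the 29 tested members were higher in LI monolayers by edgeR and 0 lower, also at an unadjusted p below 0.05 and by DESeq2, against 8.88% higher and 12.4% lower over all genes tested, and 22 members were called in crypts and in monolayers. Hoxb4 and Hoxd10 were called in crypts but not in monolayers, and Hoxc10 was among the members called in monolayers but not in crypts. The median log2 fold change of the tested members was 3.41 (3.02 with Hoxd12, at 0 in SI monolayers, set to its bound), against -0.02 over all genes. In 26 of the 29 every LI monolayer library lay above every SI monolayer library, as in 30.2% of all genes, and in 0 the reverse, as in 32.2%.

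Levels of the posterior genes were again far apart. Hoxb13 was at 0.802, 1.09 and 0.167 CPM in SI monolayers and 46.8, 47.6 and 45.0 CPM in LI monolayers (log2 fold change 6.08, SE 0.40, adjusted p = 1.60e-06). Hoxa13 was at 0.467, 0.611 and 0.362 CPM against 49.4, 47.8 and 45.1 CPM (6.62, SE 0.32, adjusted p = 7.26e-08). Hoxd13 was at 0.233, 0.244 and 0.111 CPM against 15.8, 16.4 and 15.2 CPM (6.32, SE 0.46, adjusted p = 1.68e-06). LI monolayer libraries lay close together, with coefficients of variation of 2.90%, 4.59% and 3.84% for these genes, against 26.6%, 14.9% and 43.3% in LI crypts.

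**Figure D4:**
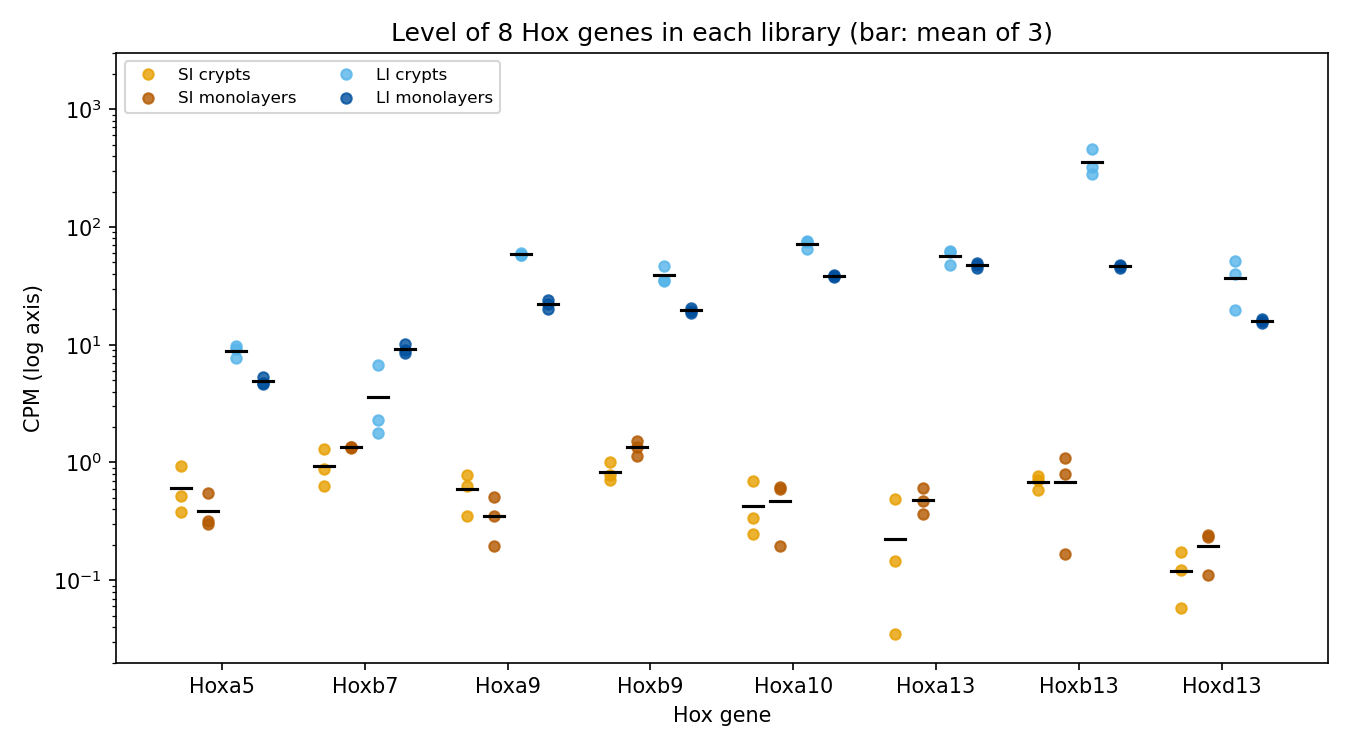
CPM (log axis) of 8 Hox genes in each library, with a bar at the mean of the 3 libraries of a group. The blue LI points lie above the orange SI points for each gene, and Hoxb13 falls from 280 to 462 CPM in LI crypts to 45.0 to 47.6 CPM in LI monolayers.

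Hoxa9, Hoxa10, Hoxa11, Hoxb9 and Hoxd11 were also called. Hoxa10 was at 0.598, 0.625 and 0.195 CPM in SI monolayers and 38.5, 38.8 and 37.6 CPM in LI monolayers (log2 fold change 6.34, SE 0.29, adjusted p = 2.18e-08). Hoxa9 was at 0.510, 0.353 and 0.195 CPM against 22.1, 24.1 and 19.95 CPM (5.97, SE 0.22, adjusted p = 1.81e-10). Hoxb9 was at 1.14, 1.36 and 1.53 CPM against 18.7, 20.5 and 19.5 CPM (3.86, SE 0.15, adjusted p = 4.17e-12). Among these 3, Hoxb9 had the smallest log2 fold change and the highest SI level. Hoxa11 was at 5.25, 3.89 and 5.22 CPM in LI monolayers, with 0, 12 and 0 counts in the SI monolayer libraries (6.38, SE 0.65, adjusted p = 5.41e-06). Hoxd11 had 20, 15 and 23 counts in LI monolayers and 0, 4 and 0 in SI monolayers (3.86, SE 0.86, adjusted p = 0.00187).

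Middle and anterior genes of Hoxa kept the difference as well. Hoxa7 was at 0.190, 0.122 and 0 CPM in SI monolayers and 8.22, 7.86 and 7.61 CPM in LI monolayers (log2 fold change 6.24, SE 0.36, adjusted p = 4.77e-08). Hoxa6 had 2 counts in the SI monolayer libraries together and was at 1.22, 1.37 and 0.868 CPM in LI monolayers, a ratio of 122 with a counting interval from 33.4 to 1014 (21.55 to 4883 if both mates were counted). Hoxa5 was at 0.554, 0.299 and 0.320 CPM against 4.61, 4.71 and 5.37 CPM (3.65, SE 0.28, adjusted p = 1.61e-08). Hoxa3 was at 0.379, 0.679 and 0.306 CPM against 2.43, 1.90 and 3.06 CPM (2.43, SE 0.27, adjusted p = 1.46e-06), and Hoxa2 at 0.204, 0.285 and 0.0836 CPM against 0.652, 0.683 and 0.662 CPM (1.79, SE 0.37, adjusted p = 0.000688).

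In the Hoxb cluster, all of Hoxb3 to Hoxb9 except Hoxb4 were called. Hoxb7 was at 1.34, 1.32 and 1.37 CPM in SI monolayers and 9.07, 8.504 and 10.1 CPM in LI monolayers (log2 fold change 2.78, SE 0.46, adjusted p = 0.000451). Hoxb6 was at 0.715, 1.48 and 1.35 CPM against 9.78, 9.80 and 8.96 CPM (3.003, SE 0.60, adjusted p = 0.00223), and Hoxb8 at 0.904, 0.978 and 0.850 CPM against 5.44, 5.52 and 5.37 CPM (2.58, SE 0.48, adjusted p = 0.000993). Hoxb3 and Hoxb5 were called with log2 fold changes of 2.79 (SE 0.58) and 1.99 (SE 0.44). Hoxb4 stood out by having overlapping groups, at 0.729, 0.815 and 1.11 CPM in SI monolayers and 0.899, 1.20 and 0.809 CPM in LI monolayers (0.12, SE 0.38, adjusted p = 0.820). Hoxd8 and Hoxd9 were called with log2 fold changes of 3.57 (SE 0.51) and 3.41 (SE 0.78). Hoxd12 was called too, but with 8, 2 and 0 counts in LI monolayers and 0 in every SI monolayer library its bound was only 1.19-fold (no bound above 1 with 6 counts as the limit), its groups overlapped, and the call was lost without any of the 3 SI monolayer libraries or without LI monolayer replicate 1 (adjusted p from 0.0636 to 0.176).

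Within the LI, the comparison of monolayers with crypts asked how far the Hox levels of fresh tissue were kept in culture. The summed level was 289 ± 45.4 CPM per kb in LI crypts and 95.2 ± 2.12 in LI monolayers (SD, n = 3), and the groups did not overlap. Of the tested members, 11 were lower in LI monolayers and 2 higher, against 23.5% lower and 14.5% higher over all genes tested, and the median log2 fold change was -0.54, against -0.05 over all genes. Libraries of the groups did not overlap for 14 tested members that were lower and 4 that were higher, against 38.5% and 34.5% of all genes. Without LI crypt replicate 2, 10 were lower and 5 higher.

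Hoxb13 made up most of the fall. It went from 325, 280 and 462 CPM in LI crypts to 46.8, 47.6 and 45.0 CPM in LI monolayers, 13.1% of the crypt mean (log2 fold change -2.94, SE 0.29, adjusted p = 1.63e-05). The other paralogues numbered 13 fell less or not detectably. Hoxd13 was at 42.95% of its crypt mean (-1.22, SE 0.29, adjusted p = 0.00436), a call that depended on LI crypt replicate 3 (-0.90 without it). Hoxa13 was at 61.6, 47.3 and 62.6 CPM in LI crypts and 49.4, 47.8 and 45.1 CPM in LI monolayers, groups that overlapped (-0.27, SE 0.22, adjusted p = 0.298).

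The Hoxd genes next to Hoxd13 fell steeply. Hoxd12 went from 117, 88 and 134 counts to 8, 2 and 0 (log2 fold change -4.83, SE 0.71, adjusted p = 3.25e-05), Hoxd11 from 137, 54 and 199 counts to 20, 15 and 23 (-2.53, SE 0.56, adjusted p = 0.00118), and Hoxd10 from 101, 54 and 68 counts to 5, 7 and 4 (-3.55, SE 0.69, adjusted p = 0.000243). Further along the cluster, Hoxd8 went from 0.484, 1.17 and 0.418 CPM to 1.22, 1.55 and 0.942 CPM (0.84, SE 0.42, adjusted p = 0.0885), and Hoxd8 was called higher without LI crypt replicate 2 (1.45, adjusted p = 0.00807). Hoxd9 was at 0.619, 0.318 and 0.365 CPM in LI crypts and 1.13, 0.717 and 0.883 CPM in LI monolayers, groups that did not overlap, but was not called (1.07, SE 0.66, adjusted p = 0.168). Within 1 cluster, the genes numbered 10 to 13 were thus lower in monolayers, and those numbered 8 and 9 had values that were higher without passing the test.

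In the Hoxa cluster, 6 members fell. Hoxa7 fell to 16.5% of its crypt mean (log2 fold change -2.60, SE 0.21, adjusted p = 4.55e-07), Hoxa3 to 24.4% (-2.03, SE 0.23, adjusted p = 8.30e-07), Hoxa2 to 29.1% (-1.78, SE 0.32, adjusted p = 0.000128), Hoxa9 to 37.7% (-1.41, SE 0.15, adjusted p = 2.14e-06) and Hoxa6 to 40.9% (-1.29, SE 0.31, adjusted p = 0.00167). Hoxa4 fell from 0.256, 0.875 and 0.457 CPM to 0.116, 0.137 and 0.162 CPM (-1.92, SE 0.54, adjusted p = 0.00512), a call that was lost without LI crypt replicate 2. Hoxa5 and Hoxa10 passed the p threshold but not that of 2-fold, with log2 fold changes of -0.86 (SE 0.22) and -0.91 (SE 0.19). Hoxa11 was at 92.1% of its crypt mean and was not called (-0.12, SE 0.41). The order of these changes did not follow paralogue number: the largest falls were those of Hoxa7 and Hoxa3, and the smallest fitted changes those of Hoxa11 and Hoxa13.

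In the Hoxb cluster, Hoxb7 rose from 2.31, 6.76 and 1.77 CPM to 9.07, 8.504 and 10.1 CPM (log2 fold change 1.35, SE 0.42, adjusted p = 0.0160). The rise was 2.17 (adjusted p = 4.25e-07) without LI crypt replicate 2, and the call was lost without LI crypt replicate 1 (adjusted p = 0.0546) or LI monolayer replicate 3 (adjusted p = 0.0517). Hoxb3, Hoxb4, Hoxb5, Hoxb6 and Hoxb8 were not called, at -0.04 (SE 0.50), -0.54 (SE 0.37), -0.37 (SE 0.40), 0.07 (SE 0.52) and 0.16 (SE 0.43). Their LI monolayer values lay between the lowest and the highest LI crypt library, for Hoxb4 and Hoxb5 in part within the range of LI crypt replicates 1 and 3. Without LI crypt replicate 2, Hoxb3 was called higher at 1.001 (adjusted p = 0.0403) and Hoxb6 at 1.07 (adjusted p = 0.00114). Hoxb9 went from 34.5, 46.6 and 35.3 CPM to 18.7, 20.5 and 19.5 CPM, just short of the 2-fold threshold (-0.99, SE 0.12, adjusted p = 1.57e-06).

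**Figure D5:**
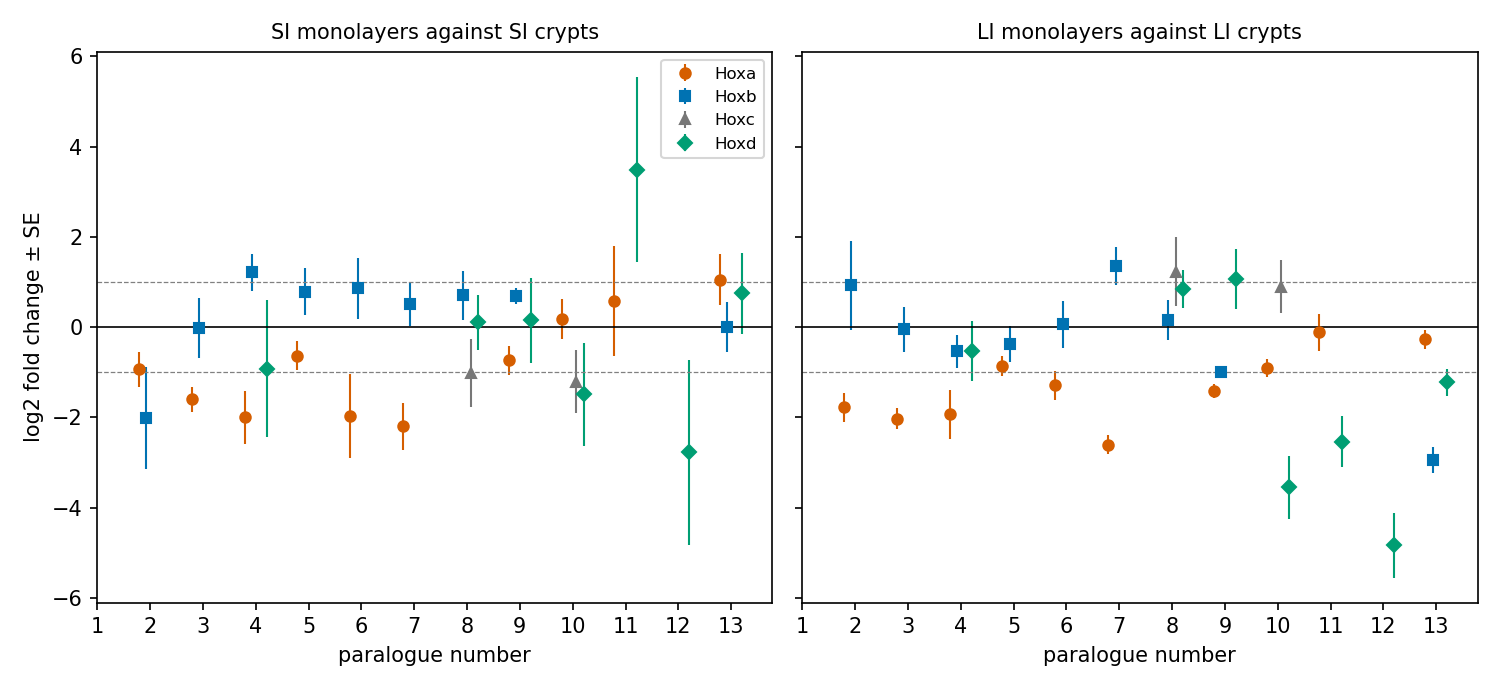
Log2 fold change (monolayers over crypts, bars: SE) of 28 of the tested members against paralogue number, in SI (left) and LI (right), coloured by cluster, with dashed lines at a log2 fold change of 1 and -1. In LI the plotted values run from -4.83 for Hoxd12 to 1.35 for Hoxb7, and in SI from -2.77 for Hoxd12 to 3.49 for Hoxd11, neither called and each from at most 4 counts in a library.

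In SI, few Hox genes were called between monolayers and crypts. Only 1 member in SI crypts and 3 in SI monolayers reached a mean of 1 CPM. At such low counts a missing call does not show that a level was kept. Of the tested members, 1 was higher and 3 lower in SI monolayers, against 9.71% and 16.4% over all genes tested, and the median log2 fold change was 0.005, against -0.049. Libraries did not overlap for 4 tested members that were higher and 4 that were lower, against 32.1% and 34.3% of all genes. Hoxa3 fell from 0.997, 1.48 and 1.67 CPM to 0.379, 0.679 and 0.306 CPM (-1.60, SE 0.28, adjusted p = 0.000119). Hoxa4 fell from 10 or more counts in each SI crypt library, 0.175, 0.509 and 0.337 CPM, to 0.0875, 0.0951 and 0.0697 CPM (-2.00, SE 0.58, adjusted p = 0.00725). Hoxa7 fell from 0.577, 0.262 and 0.600 CPM to 0.190, 0.122 and 0 CPM (-2.20, SE 0.53, adjusted p = 0.00372). Hoxa3, Hoxa4 and Hoxa7 were called lower in LI monolayers too. Hoxb4 rose from 0.455, 0.339 and 0.351 CPM to 0.729, 0.815 and 1.11 CPM (1.22, SE 0.41, adjusted p = 0.0169), and the call was lost without SI crypt replicate 2 (adjusted p = 0.0530) or SI monolayer replicate 3 (adjusted p = 0.0611). Hoxb13 was at 0.688 ± 0.0938 CPM in SI crypts and 0.685 ± 0.471 in SI monolayers (0.005, SE 0.56), and its SI monolayer libraries ranged from 0.167 to 1.09 CPM.

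The test of the difference itself asked whether the gap between regions was the same in monolayers and crypts. Of the 29 tested members, 4 had a lower value in monolayers (LI over SI) and 0 a higher one by edgeR, against 11.4% and 8.51% of all genes tested. The share of lower members was thus near that over all genes. At an unadjusted p below 0.05, 2 were higher, among them Hoxc10, and DESeq2 called 0 higher. Without LI crypt replicate 2 the numbers were 4 lower and 2 higher, the latter including Hoxb7 (1.66, adjusted p = 0.000479). Hoxb13 had the gap reduced by 2.94 on the log2 scale (SE 0.63, adjusted p = 0.00481) and Hoxb9 by 1.68 (SE 0.22, adjusted p = 1.01e-05). The gap of Hoxb4 was reduced by 1.75 (SE 0.55, adjusted p = 0.0160), with a rise in SI and no call in LI, but by 1.08 (adjusted p = 0.0601) without LI crypt replicate 2. Hoxd11 was also called (adjusted p = 0.0368), but the call was lost without any of 8 of the 12 libraries (adjusted p from 0.0513 to 1), and since SI crypts had no count its fitted value depends on the prior count. The difference of differences was not called for Hoxd13 (-1.97, SE 0.93, adjusted p = 0.117), which was called without LI crypt replicate 2 (-2.28, adjusted p = 0.000425) and by DESeq2 (-1.96, adjusted p = 0.0094). Hoxa13 (-1.32, SE 0.60, adjusted p = 0.103) was called only without SI crypt replicate 2 (adjusted p = 0.00102). Hoxa10 (-1.085, SE 0.48, adjusted p = 0.0931) was called only without SI crypt replicate 1 (adjusted p = 0.013) or SI monolayer replicate 3 (adjusted p = 0.00332). Few SI counts limit all of these tests.

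Other annotated genes lie inside the clusters, mostly noncoding RNAs. Of 46, 15 had enough counts to be tested, and 14 of these were higher in LI crypts and in LI monolayers, the same 11.1% and 8.88% of all genes being the background. Gm53, a lincRNA between Hoxb13 and Hoxb9 (chr11:96251105-96264868, plus strand), was at 0.420, 0.154 and 0.483 CPM in SI crypts and 58.9, 65.2 and 62.4 CPM in LI crypts (log2 fold change 7.46, SE 0.20, adjusted p = 1.07e-12). In LI monolayers Gm53 was at 17.0, 17.8 and 16.4 CPM (-1.86 against LI crypts, SE 0.13, adjusted p = 1.33e-08). Gm53 was highest in LI crypt replicate 2, as Hoxb9 was, while Hoxb13 was lowest there. Hoxa11os, transcribed opposite Hoxa11 (chr6:52244393-52249799, plus strand), was at 14.7, 11.9 and 15.4 CPM in LI crypts and 2.48, 2.22 and 2.55 CPM in LI monolayers (-2.54, SE 0.26, adjusted p = 3.96e-07), while Hoxa11 itself was not called. The pair share exon bases, 35% of those of Hoxa11, and cannot be fully told apart without strand. Hoxaas3 and Gm27605 were also higher in LI crypts, with log2 fold changes of 2.698 (SE 0.26) and 7.96 (SE 0.49), and so was 9530018H14Rik, next to Hoxa13, which had no count in SI crypts and was at 3.31 ± 0.37 CPM in LI crypts. The exception was Gm11539, a processed pseudogene within the Hoxb cluster, with means from 4.36 to 5.19 CPM over the 4 groups.

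Genes that act with or upstream of Hox genes were compared by the same rule, beside 11.1% higher and 11.6% lower of all genes in crypts. Of the 9 TALE cofactors, 2 were lower in LI crypts: Pbx4 (-3.52, SE 0.50) and Meis2 (-2.02, SE 0.37), both at no more than 2.44 CPM in any library. Of 20 Polycomb genes, 2 were lower in LI crypts, Cbx6 (-1.31, SE 0.11) and Cbx2 (-1.06, SE 0.11). Among caudal and ParaHox genes, which act upstream of Hox genes in the embryo, Cdx1 was higher in LI crypts (541, 517 and 658 CPM) than in SI crypts (276, 250 and 287 CPM), with a log2 fold change of 1.08 (SE 0.08, adjusted p = 2.68e-08). Of 9 tested retinoic acid genes, 2 were higher in LI crypts, Aldh1a2 (3.45, SE 0.65) and the receptor gene Rarg (1.91, SE 0.15). Cyp26b1, which breaks retinoic acid down, was lower (-1.80, SE 0.64), with only 6, 2 and 8 counts against 8, 30 and 10.

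In monolayers, beside 8.88% higher and 12.4% lower of all genes, 3 retinoic acid genes were higher in LI and 1 lower. Aldh1a3 was at a mean of 834 CPM in LI monolayers against 39.5 in SI monolayers (4.4, SE 0.32, adjusted p = 3.51e-06), Aldh1a2 and Rarg were higher by 3.01 (SE 0.82) and 1.503 (SE 0.15), and Aldh1a1 was at 17.2 against 357 CPM (-4.38, SE 0.52, adjusted p = 0.000115). The TALE genes Pbx4 (-1.39, SE 0.41) and Meis2 (-1.095, SE 0.34) were lower again. Pknox2 was higher (1.92, SE 0.72), with only 20, 16 and 20 counts against 0, 6 and 10. Pdx1 was lower (-2.87, SE 0.48), and the Polycomb gene Rnf2 was higher (1.015, SE 0.07).

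Within LI, monolayers and crypts were compared for the same lists. All 3 tested caudal and ParaHox genes were lower in LI monolayers than in LI crypts: Cdx1 was at 107, 111 and 108 CPM in monolayers (-2.395, SE 0.09, adjusted p = 1.40e-12), Cdx2 at 157, 162 and 164 CPM against 347, 353 and 272 CPM (-1.01, SE 0.08, adjusted p = 9.56e-09), and Pdx1 fell by 2.71 (SE 0.48). Of the Polycomb genes, 4 were higher and 1 lower. The largest changes were those of Epop (3.465, SE 0.35), Cbx6 (2.703, SE 0.11), Bmi1 and Rnf2 (1.32, SE 0.07), with Bmi1 at 38.3, 43.0 and 40.4 CPM against 13.1, 13.6 and 12.8 CPM (1.62, SE 0.06, adjusted p = 1.68e-12). Of 10 trithorax and H3K27 demethylase genes, 2 were higher, Psip1 (1.81, SE 0.09) and Kdm6b (1.002, SE 0.08). Aldh1a3, which makes retinoic acid, rose from 4.19, 1.60 and 2.74 CPM to 871, 848 and 782 CPM (8.20, SE 0.39, adjusted p = 7.39e-08), while Aldh1a1 fell by 2.35 (SE 0.48) and Aldh1a2 by 2.285 (SE 0.59). Cyp26b1 rose by 1.72 (SE 0.64), from 6, 2 and 8 counts to 12, 16 and 18. Of the TALE genes Pbx4 (2.465, SE 0.51) and Meis2 (1.52, SE 0.38) rose and Pbx2 fell (-1.34, SE 0.07). The counts of 4 higher of 20 and 3 lower of 3 stand beside 14.5% and 23.5% of all genes.

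Hox genes are also expressed in the connective tissue and muscle of the gut wall, so markers of other cell types were summed. The 12 fibroblast markers were at 26.99 to 52.9 CPM in SI crypts, 24.9 to 35.1 in SI monolayers, 57.1 to 75.5 in LI crypts and 65.9 to 89.45 in LI monolayers, with Lum and Dpt below 0.1 CPM in both SI groups. Single markers differed unevenly between regions. Dcn had 24, 48 and 22 counts in SI crypts against 878, 718 and 755 in LI crypts. Vim, a large part of the SI crypt sum, had 1193, 1252 and 800 counts against 1236, 1145 and 947. The 6 smooth muscle markers were at 1.70 to 2.26, 1.02 to 1.47, 3.50 to 43.4 and 3.72 to 4.85 CPM in the same order. Immune markers were at 157 to 168 CPM in SI crypts, 46.1 to 51.5 in SI monolayers, 32.7 to 37.9 in LI crypts and 3.20 to 3.67 in LI monolayers. The SI monolayer sum was mostly Lyz2, so the sums do not rank SI monolayers and LI crypts by immune cells. Ptprc had 148, 198 and 174 counts in SI monolayers against 1319, 1035 and 1078 in LI crypts. Itgam was not lower in SI monolayers (98, 72 and 91 against 61, 81 and 67 counts). The 5 endothelial markers summed to at most 4.22 CPM in any library. The 6 neuron and glia markers summed to 9.34 to 20.4 CPM. The sums of fibroblast and smooth muscle markers were thus higher in LI along with the Hox genes. In crypts, 6 of 12 fibroblast and 6 of 6 smooth muscle markers were called higher in LI and 0 lower. Over all genes tested, 11.1% were higher and 11.6% lower. In monolayers, 9 of 12 fibroblast but only 1 of 6 smooth muscle markers were called higher in LI and 0 lower. The shares over all genes there were 8.88% and 12.4%. The part of these markers in the result was not tested. In LI monolayers against LI crypts, 4 of the 12 fibroblast markers were lower and 3 higher. Of the 6 smooth muscle markers, 5 were lower and 0 higher. Over all genes tested, 23.5% were lower and 14.5% higher. How these changes relate to the fall of Hox levels was not tested. Region markers followed the labels in crypts, and in monolayers with the exception of Aqp4, Ly6g6c and the SI marker Lct, which was not called (-2.40). The 6 SI epithelial markers were at 5157 to 13380 CPM in SI crypts and 32.5 to 94.4 CPM in LI crypts. The 5 LI epithelial markers were at 33.5 to 36.5 CPM in SI crypts and 1683 to 3942 CPM in LI crypts. In monolayers they were at 11.95 to 23.25 CPM in SI and 124 to 136 CPM in LI. Between LI monolayers and LI crypts, 3 of the 5 LI markers were lower in monolayers and 1 higher, against 23.5% and 14.5% of all genes. Of these 5, all were higher in LI crypts, but in monolayers 3 were higher, Aqp4 was lower in LI (-1.60, SE 0.15, adjusted p = 2.29e-06) and Ly6g6c was not called.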

How the data were processed

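RNA-seq measured gene expression in 12 mouse libraries, 3 in each of 4 groups taken from the labels. The deposited table holds raw counts per gene. The authors aligned paired-end reads to GRCm38 with GENCODE vM25 using STAR 2.7.9a and counted with featureCounts 2.0.2 (versions from the submitters' processing notes). Strand and mate settings are not given in the sources used here, and 73.8% of the 164 member counts from 1 to 20 were even, as pairs counted by both mates would be. A second table of counts normalized with DESeq2 was not used, since it holds the same counts divided by 1 factor per library.

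Counts were fitted with edgeR 4.0.16 (quasi-likelihood test, robust, TMM scaling, filterByExpr by group, 1 model of 4 group means) in R 4.3.3 over 19581 genes, and the script was tested on simulated data. A gene was called at a Benjamini-Hochberg adjusted p below 0.05 where its log2 fold change was also 1 or more in size. Totals of 59016196 to 76216530 counts per library set the limit of 3 counts at 0.0391 to 0.0525 CPM, and counting intervals are exact at 95%. The comparisons were LI against SI in crypts and in monolayers, monolayers against crypts in SI and in LI, and the interaction of region and preparation. Alternatives were DESeq2 1.42.0, upper quartile scaling, other count filters, halved counts, calls by adjusted p alone, separate fits of the groups compared, a replicate block and each library left out. Leaving out members with few SI counts, setting members at 0 to their bound and limits for counts of both mates were added after seeing the data. Values in each library or summed counts are given for members called in any comparison with a mean of at least 1 CPM in a group. Those of Hoxb3 and Hoxb5 in monolayers and of Hoxd8 in SI are left out. Other members are given by ranges and counts, with some named after their values were seen. Related lists name up to 4 called genes with the largest change, and up to 6 other genes inside the clusters were named by mean CPM. Homeoboxes came from GENCODE vM21 transcripts on GRCm38. Values of 1 member and of 2 genes of other lists are not reported here, though counts and sums include them. The members and lists were chosen with earlier results of these data known.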

Additional observations from a re-analysis of the deposited data

Results flagged for a closer look

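By the edgeR interaction test, the difference between LI and SI was lower in monolayers than in crypts for 4 of 29 tested members. It was higher for 0. Over all genes tested, 11.4% were lower and 8.51% higher, so the share of lower members was near that over all genes. The interaction was -2.94 on the log2 scale for Hoxb13 (adjusted p = 0.00481), -1.68 for Hoxb9 (adjusted p = 1.01e-05), -1.75 for Hoxb4 (adjusted p = 0.0160) and -6.03 for Hoxd11 (adjusted p = 0.0368). The value of Hoxd11 rests on SI crypts without a count and is no measured fold, and its call was lost without any of 8 of the 12 libraries (adjusted p from 0.0513 to 1). The value of Hoxb4 was -1.08 (adjusted p = 0.0601) without LI crypt replicate 2.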

How the results depend on the processing

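The alternatives gave 1911 values for the 21 members called in any comparison with a mean of at least 1 CPM in a group. Of these values, 1812 kept their direction and side of the threshold, 30 passed it newly, 21 no longer passed it and 48 changed sign. A minimum of 10 counts in every library, which removes genes near 0 in SI, left 10 Hox calls (10 higher) in LI against SI crypts, 9 (9 higher) in monolayers, 2 (1 lower) in SI monolayers against crypts and 5 (1 higher, 4 lower) in LI, and 7, 9, 5 and 14 calls among the related lists. No minimum fold change gave 47, 51, 35, 50 and 36 list calls in the 5 comparisons and 2 higher Hox genes in SI monolayers against SI crypts. Fitting only the groups compared gave 5 list calls in SI monolayers against SI crypts.

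The same-numbered libraries did not deviate together (18 correlations from -0.052 to 0.056). With 3 libraries a group this cannot settle whether libraries with the same number came from the same mouse. With the replicate block the interaction calls went from 4 to 3. The replicate block turned Hoxb3 to 0.033 in SI monolayers against SI crypts, 0.263 in LI and 0.23 in the interaction. Other sign changes near 0 were Hoxb3 at 0.013 with only the groups compared, Hoxb13 in SI at -0.063 (10 counts), -0.034 (upper quartile), -0.017 (halved counts) and -0.042 (DESeq2), and Hoxb6 in LI monolayers against crypts at -0.011 (10 counts) and -0.047 (upper quartile). Upper quartile scaling moved the median of all genes by -0.118 in LI monolayers against LI crypts. The cause of these changes was not tested.

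Leaving out 1 library at a time, log2 fold changes in SI monolayers against SI crypts ranged from -0.10 to 0.69 for Hoxa10, -4.37 to 2.53 for Hoxa11, -0.351 to 0.495 for Hoxb3, -0.475 to 0.507 for Hoxb13 and -0.365 to 0.438 for Hoxd8, with 0 to 1 higher and 3 to 5 lower calls. In LI monolayers against LI crypts they ranged from -0.398 to 1.001 for Hoxb3, -0.81 to 0.14 for Hoxb4, -0.65 to 0.34 for Hoxb5, -0.27 to 1.065 for Hoxb6 and -0.18 to 0.98 for Hoxb8, with 1 to 5 higher calls. For Hoxb4 in LI against SI monolayers the range was -0.083 to 0.29. In the interaction, 3 to 8 members were called (0 to 2 higher, 3 to 8 lower), with ranges from -0.648 to 0.021 for Hoxa5, -0.051 to 3.19 for Hoxa6, -1.09 to 0.21 for Hoxa7, -2.64 to 4.18 for Hoxa11, -0.54 to 1.02 for Hoxb3, -1.15 to 0.20 for Hoxb6 and -0.89 to 0.27 for Hoxb8. The call of Hoxd11 was lost with the replicate block (adjusted p = 0.0537) and with halved counts (adjusted p = 0.0943), as it was without any of 8 of the 12 libraries. Between 1 and 2 members reached 1 CPM in SI crypts. Without a library, Hoxd11 or Hoxd12 could be at 0 in both SI groups and then gave no value. Low SI counts limit every fold change between regions.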
